A study of Mus musculus with 2 samples.

Results

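The genes described here encode aquaporins, the membrane channels for water and glycerol, and the glycerol-3-phosphate dehydrogenases, in the mouse heart with and without the Mediator subunit Med1. The rows whose symbol was Aqp1, Aqp4, Aqp7, Aqp8, Gpd1, Gpd1l or Gpd2 were taken, which gave 7 genes of the 22882 symbols listed, each on 1 row. Both groups carried floxed Med1 alleles. The control hearts came from Med1fl/fl mice, and the csMed1-/- hearts from Med1fl/fl mice crossed with the α-MyHC-Cre transgene, so the deletion is restricted to cells that use this cardiomyocyte promoter, from late gestation onwards, and the endothelial, stromal and blood cells of the heart keep the gene. The labels name no Cre transgene for the controls. All mice were untreated C57BL6/J animals of mixed sex, 23 days old, and RNA of 5 hearts was pooled for each genotype into 1 library, so no replicates existed and the genotypes could not be compared by a test. Values are FPKM, the fragments scaled to transcript length and to the mapped fragments of the library, so that levels of different genes can be set side by side.

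Aquaporins form tetramers in the cell membrane, each subunit with its own pore. Orthodox aquaporins such as Aqp1 and Aqp4 conduct water, while aquaglyceroporins such as Aqp7 also admit glycerol. Inside the cell, glycerol kinase turns glycerol into glycerol-3-phosphate, which the cytosolic enzyme Gpd1 can also make from the glycolytic intermediate dihydroxyacetone phosphate with NADH. Glycerol-3-phosphate is then either esterified with fatty acids to triglyceride and phospholipid or oxidized by Gpd2 at the mitochondrial inner membrane, and the latter route, the glycerol phosphate shuttle, carries cytosolic reducing equivalents to the respiratory chain. In heart the malate-aspartate shuttle is the better known route for this transfer.

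Med1 itself, the deleted gene, had 3.38 FPKM in the Med1fl/fl library and 0.412 FPKM in the csMed1-/- library, giving a ratio of 0.122. Of all symbols, 10489 had values above 0 in each library and reached 1 FPKM in either of them, and the median log2 ratio of csMed1-/- to Med1fl/fl over these genes was -0.07, with quartiles of -0.72 and 0.55. A difference of more than 2-fold is called lower or higher here, and 31.5% of the 10489 genes were past it. The study used the same fold but also a false discovery rate cutoff. That cutoff was not applied here, so these calls are plain ratios without a test and not the study's gene list. The heart label was checked against cardiomyocyte markers. Myl2, a ventricular myosin light chain, had 20467 FPKM in control heart and 6571 FPKM in csMed1-/- heart. Actc1, Mb and the row that joins Myh6 with Myh7 were listed at 0 in the control library against 9189, 1040 and 647 FPKM in the csMed1-/- library. Since every heart expresses these genes, a listed 0 can be a failed estimate in these files.

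Of the 7 members, Aqp7 was the only one that passed the filter and fell by more than 2-fold in csMed1-/- heart, and no member rose by that much. Over all genes, 18.0% were lower and 13.6% were higher, and 1 lower gene of the 5 members kept is close to that background. Aqp1, Gpd1, Gpd1l and Gpd2 lay within 2-fold, Gpd2 barely so. Aqp4 and Aqp8 stayed under 1 FPKM in both libraries and did not pass the filter. Over the 5 members kept, the median log2 ratio was -0.30, and over all 7, with the low values of Aqp4 and Aqp8, it was -0.99.

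**Figure D1:**
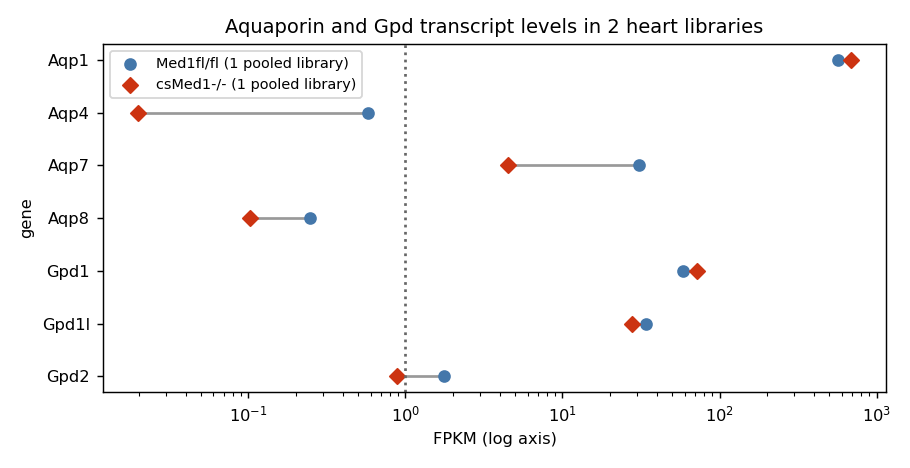
Level of each member in FPKM (horizontal log axis) in the Med1fl/fl library (circles) and the csMed1-/- library (diamonds), 1 pooled library each. The symbols lie far apart for Aqp7, at 30.8 and 4.47 FPKM, and for Aqp4, below the dotted line at 1 FPKM, and close together for Aqp1, Gpd1 and Gpd1l.

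The order of levels in the control heart was Aqp1, Gpd1, Gpd1l, Aqp7, Gpd2, Aqp4 and Aqp8. In the csMed1-/- heart the order was the same except that Aqp8 stood above Aqp4. With 1 library per genotype there is no spread against which neighbours in this order, such as Gpd1l and Aqp7 in control, could be told apart.

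Aqp7 encodes the aquaglyceroporin known from adipocytes, where it releases glycerol during lipolysis, and from heart muscle, where it takes glycerol up. It had 30.8 FPKM in the control library and 4.47 FPKM in the csMed1-/- library, 6.89-fold lower (log2 ratio -2.78). Of the genes kept, 246, or 2.35%, had a log2 ratio as low as that of Aqp7 or lower. Past 4-fold, a threshold that Aqp7 also crossed, 5.14% of genes were lower. By its level Aqp7 ranked 2501 among all symbols in control and 6506 in csMed1-/- heart. Its gene occupies chromosome 4 from 41033074 to 41048139, minus strand (GRCm38, GENCODE M21), and its longest coding transcript has 8 exons and 2527 bases. Among the 5426 genes that reached 10 FPKM in either library, the genes nearest to Aqp7 in log2 ratio were Tesc, with 208.6 and 30.3 FPKM, and Acadm, the medium-chain acyl-CoA dehydrogenase gene, with 250.7 and 36.4 FPKM. Their log2 ratios differed from that of Aqp7 by 2.0e-05 and 0.00063. Both genes were picked as the closest in this ratio, so small distances follow from the choice. With 2 libraries the likeness also rests on a single ratio per gene, and shared regulation was not tested.

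Aqp1 encodes the water channel of capillary endothelium and red blood cells, and its level in the deposited data was the highest of the members by far. It had 566 FPKM in control heart and 685 FPKM in csMed1-/- heart, or a ratio of 1.21 (log2 ratio 0.27), and 64.8% of genes had a ratio as low or lower. Aqp1 ranked 248 in control and 202 in csMed1-/- heart. It lies on chromosome 6 from 55336432 to 55348555 on the plus strand, with 4 exons in its single coding transcript of 2627 bases. Within each library, where no scaling between libraries enters, the level of Aqp1 was 18.4 times that of Aqp7 in control and 153.1 times in csMed1-/- heart, a change of 8.33-fold in this quotient. Of the summed FPKM of the 12 aquaporins listed, Aqp1 held 94.4% in control and 99.2% in csMed1-/- heart, and the share of Aqp7 was 5.14% and 0.648%.

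The bases upstream of the start sites of Aqp7 and Aqp1 are shown, read on the gene's strand from RefSeq on GRCm38.p6, for 250 bases ending just before the annotated start. Whether these bases bear on the level of either gene was not tested. The Aqp7 window is chr4:41048137-41048386 on the minus strand, and the Aqp1 window is chr6:55336049-55336298 on the plus strand. Capitals mark the nuclear receptor half-site AGGTCA, on either strand, in Aqp7 and the GC box GGGCGG, on either strand, in Aqp1.
Aqp7: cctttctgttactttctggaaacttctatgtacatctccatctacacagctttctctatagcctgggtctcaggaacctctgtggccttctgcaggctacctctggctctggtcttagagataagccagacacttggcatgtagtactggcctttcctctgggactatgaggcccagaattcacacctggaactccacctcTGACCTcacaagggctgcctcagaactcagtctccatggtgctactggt
Aqp1: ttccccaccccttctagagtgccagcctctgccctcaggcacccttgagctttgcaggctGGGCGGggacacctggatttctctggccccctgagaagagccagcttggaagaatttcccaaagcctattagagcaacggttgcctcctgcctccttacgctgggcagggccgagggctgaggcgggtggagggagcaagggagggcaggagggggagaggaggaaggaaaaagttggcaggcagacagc
The half-site in Aqp7 reads TGACCT on this strand and ends 43 bases before the start. Of the members, 5 have an entry in the promoter table, with 7 windows. AGGTCA was found in 2 of these windows, both of Aqp7 and overlapping each other in the genome, and it occurs in 14.0% of all 32851 windows of this length. The direct repeat AGGTCANAGGTCA, the sequence type bound by PPAR with RXR, was in 0 of the 7 windows and in 0.0335% of all windows. GGGCGG was in 2 of the 7, one of Aqp1 and one of Gpd2, and in 32.7% of all windows. These motifs were chosen, from several searched, after the sequences were seen, and a match is a run of letters and not a binding site.

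Aqp4 encodes the water channel of astrocyte endfeet, which is also found in the membrane of muscle fibres. It had 0.575 FPKM in control heart and 0.0199 FPKM in csMed1-/- heart, 28.9-fold lower as a plain ratio (log2 ratio -4.85). Aqp8, a water channel best known from digestive organs, had 0.247 FPKM in control heart and 0.102 FPKM in csMed1-/- heart (log2 ratio -1.28). Among the 15930 genes above 0 in both libraries, 20.0% were lower by more than 2-fold, 14.9% had a ratio as low as that of Aqp8 or lower, and 0.439% one as low as that of Aqp4. Both levels are low. FPKM times transcript length is proportional to the number of reads, and this product for Aqp4 was 160.2 times that of Aqp9, the aquaporin with the lowest value above 0 in control, in the control library and 7.58 times in the csMed1-/- library. For Aqp8 the same multiples were 20.2 and 11.4. If the Aqp9 value stood for a single read, these multiples would be the reads of Aqp4 and Aqp8, but the reads themselves are not in the files used here. With 1 FPKM added to both values, an alternative chosen after seeing the data, the log2 ratio of Aqp4 was -0.63 and that of Aqp8 was -0.18.

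Of the 8 other aquaporins, Aqp11 alone reached 1 FPKM, with 1.71 FPKM in control heart and 1.05 FPKM in csMed1-/- heart (log2 ratio -0.70, within 2-fold). Aqp11 belongs to the distant branch of the family that resides in intracellular membranes. The 7 remaining genes, Mip, Aqp2, Aqp3, Aqp5, Aqp6, Aqp9 and Aqp12, were below 0.1 FPKM in both libraries, and a value of 0 was listed for Mip and Aqp5 in control, for Aqp6 in csMed1-/- heart and for Aqp12 in both. Aqp3 and Aqp9, the other glycerol channels of the list, had 0.0308 and 0.00686 FPKM in control heart and 0.0283 and 0.00501 FPKM in csMed1-/- heart. Among the glycerol channels listed, Aqp7 therefore had the highest level in both libraries.

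In contrast to Aqp7, the cytosolic glycerol-3-phosphate dehydrogenase Gpd1 kept a similar level. It had 58.5 FPKM in control heart and 72.1 FPKM in csMed1-/- heart, or a ratio of 1.23 (log2 ratio 0.30), and 66.1% of genes had a ratio as low or lower. Gpd1l, a cytosolic relative of Gpd1 that is also known as a modulator of the cardiac sodium channel, had 34.0 FPKM in control heart and 27.6 FPKM in csMed1-/- heart, or a ratio of 0.812 (log2 ratio -0.30). Gpd2, the FAD-linked mitochondrial enzyme, had 1.76 FPKM in control heart and 0.889 FPKM in csMed1-/- heart, or a ratio of 0.505 (log2 ratio -0.99), just inside the 2-fold line, and 18.2% of genes had a ratio as low or lower. When both libraries were scaled to the same FPKM sum without the 100 highest genes, Gpd2 crossed this line narrowly, with a log2 ratio of -1.0004, and with 1 FPKM added to both values its log2 ratio was -0.55.

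The 3 dehydrogenase transcripts together summed to 94.2 FPKM in control heart and 100.7 FPKM in csMed1-/- heart. Gpd1 made up 62.0% of this sum in control and 71.7% in csMed1-/- heart, Gpd1l 36.1% and 27.4%, and Gpd2 1.87% and 0.883%. Within each library the level of Gpd1 was 33.2 times that of Gpd2 in control and 81.2 times in csMed1-/- heart. This was a change of 2.45-fold in the quotient of the cytosolic over the mitochondrial transcript of the shuttle. The quotient rests on the low level of Gpd2, 1.76 and 0.889 FPKM. With 1 FPKM added to both values, the log2 ratios of Gpd1 and Gpd2 were 0.30 and -0.55. The level of Gpd1 was 1.72 times that of Gpd1l in control and 2.61 times in csMed1-/- heart. Gpd1 lies on chromosome 15 from 99717515 to 99725005 (plus strand), Gpd1l on chromosome 9 from 114899341 to 114933987 (minus strand) and Gpd2 on chromosome 2 from 57237635 to 57370719 (plus strand).

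**Figure D2:**
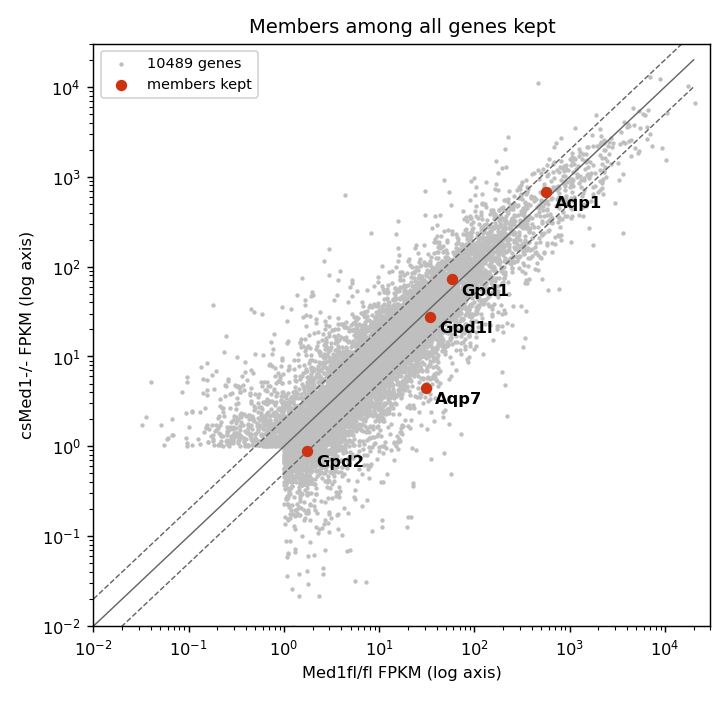
FPKM of the 10489 genes kept in the Med1fl/fl library (horizontal log axis) and the csMed1-/- library (vertical log axis), 1 grey point per gene, with the 5 members kept in red, the line of equal levels and dashed lines at 2-fold. Aqp7 lies below the lower dashed line, Gpd2 on it, and Aqp1, Gpd1 and Gpd1l near the line of equal levels.

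The genes around glycerol and glycerol-3-phosphate were taken from lists of 54 genes beside the members. Of these 43 were kept, 12 (27.9%) were lower and 2 (4.65%) were higher by more than 2-fold, against 18.0% and 13.6% of all genes, and their median log2 ratio was -0.36. The lower genes stood mostly in triglyceride synthesis, the malate-aspartate shuttle and the PPAR regulators. The lists were chosen with earlier results of these data known, so their share of lower genes is not an independent result.

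Glycerol reaches cells from the hydrolysis of triglyceride. Lpl, which encodes lipoprotein lipase, the enzyme that acts on circulating triglyceride, fell from 129.4 to 23.0 FPKM (log2 ratio -2.49). The other 4 genes of this list lay within 2-fold. Pnpla2, the gene of adipose triglyceride lipase, had 391.1 and 586.4 FPKM, Lipe, the gene of hormone-sensitive lipase, had 48.1 and 49.8 FPKM, and Mgll, the gene of monoglyceride lipase, which frees the glycerol, had 105.1 and 113.6 FPKM. Abhd5, whose product activates adipose triglyceride lipase, had 13.7 and 14.2 FPKM. Thus Lpl was the list's only lower gene of 5, against 18.0% of all genes, and the median log2 ratio of the list was 0.06.

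Gyk, the gene of glycerol kinase, had 0.944 FPKM in control heart and 1.53 FPKM in csMed1-/- heart (log2 ratio 0.70). All 4 genes kept of the enzymes for glycerol and triose phosphate lay within 2-fold and had log2 ratios above 0, where the median of all genes was -0.07. Tpi1, the triose phosphate isomerase gene, had 812.6 and 923.0 FPKM. Dak, the gene of triokinase, which phosphorylates glyceraldehyde and dihydroxyacetone, had the largest log2 ratio of this list at 0.91. It passed 2-fold when the libraries were scaled to the same FPKM sum. The level of Aqp7 was 32.6 times that of Gyk in control and 2.93 times in csMed1-/- heart.

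Downstream of glycerol-3-phosphate, 4 of the 12 genes kept for its acylation to triglyceride fell and 1 rose, against 18.0% of all genes lower and 13.6% higher. Gpam, the mitochondrial glycerol-3-phosphate acyltransferase, fell from 37.9 to 6.41 FPKM (log2 ratio -2.56). Its microsomal counterparts were level, Agpat9 at 6.42 and 6.41 FPKM and Agpat6 at 30.0 and 29.6 FPKM. Lpin1, the phosphatidate phosphatase lipin 1 that makes diacylglycerol, fell from 43.3 to 5.04 FPKM (-3.10), whereas Lpin3 rose from 2.245 to 6.34 FPKM (1.497). Dgat2, which completes the triglyceride, fell from 460.6 to 91.9 FPKM (-2.33), while Dgat1 had 20.7 and 28.7 FPKM. Agpat2, a lysophosphatidate acyltransferase, fell from 71.1 to 30.4 FPKM (-1.22). At each of the acyltransferase, lipin and final acylation steps, therefore, a gene of several isoforms fell while another lay within 2-fold or rose. Within each library the level of Gpd1 was 1.54 times that of Gpam in control and 11.3 times in csMed1-/- heart. Of the 4 genes of cardiolipin synthesis, which also starts from glycerol-3-phosphate, none passed 2-fold in either direction, with log2 ratios from -0.86 (Crls1, cardiolipin synthase) to 0.93 (Pgs1, phosphatidylglycerophosphate synthase). Pgs1 did pass 2-fold when ratios were centred on their median or the libraries were scaled to the same FPKM sum.

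The malate-aspartate shuttle shares its task with the shuttle of Gpd1 and Gpd2. All 7 genes listed for it had log2 ratios below 0, and 4 were lower by more than 2-fold, with a median of -1.05. Over all genes the median was -0.07, so more lay below 0 than above, and 18.0% were lower by more than 2-fold. The largest decrease was that of Slc25a13, an aspartate-glutamate carrier, from 34.3 to 3.81 FPKM (-3.17), and its relative Slc25a12 fell from 117.6 to 56.8 FPKM (-1.05), a call that was lost when ratios were centred on their median (-0.98) or the libraries scaled to the same FPKM sum (-0.93). Slc25a11, the oxoglutarate-malate carrier, fell from 582.5 to 180.9 FPKM (-1.69), and Mdh1, the cytosolic malate dehydrogenase, from 1388 to 466.4 FPKM (-1.57). Mdh2, Got1 and Got2 lay within 2-fold. The level of Mdh1 in control was above that of Gpd1, whose quotient over Mdh1 was 0.0421 in control and 0.155 in csMed1-/- heart.

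**Figure D3:**
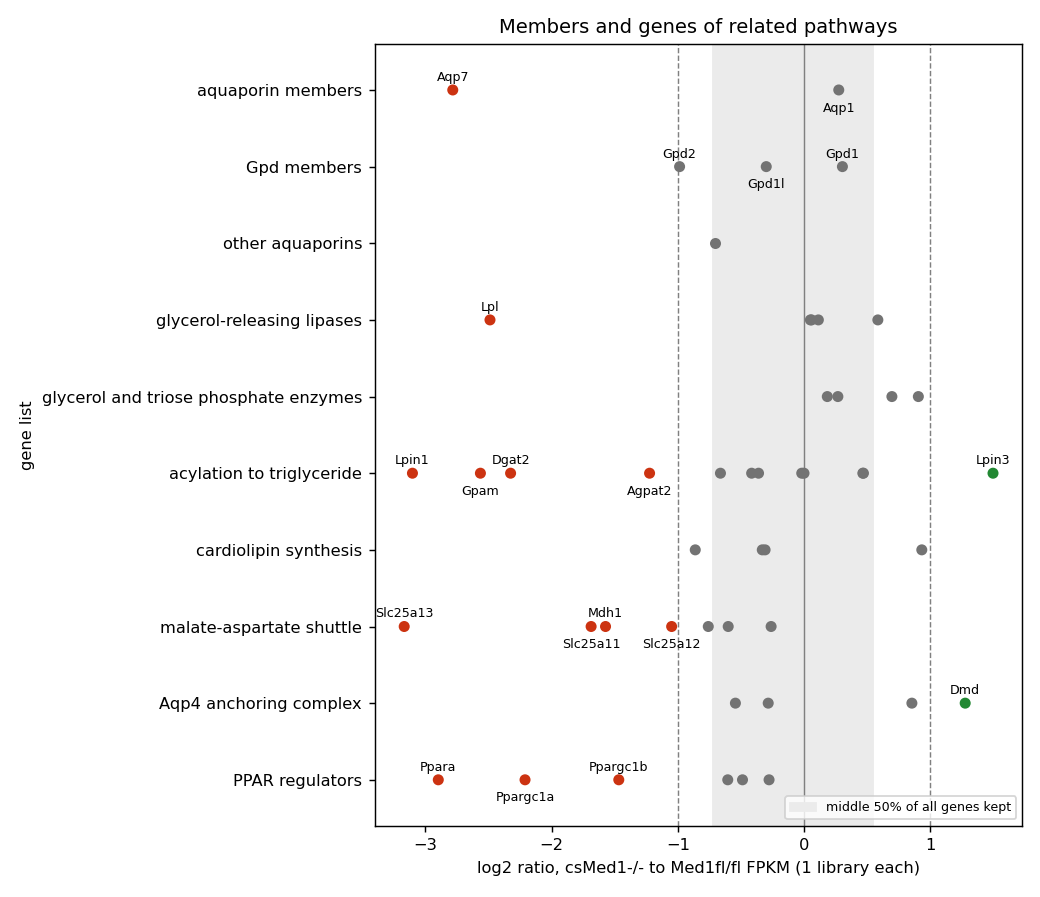
Log2 ratio of csMed1-/- to Med1fl/fl FPKM (horizontal axis, 1 library each) for the genes kept of each list (vertical axis), with genes lower by more than 2-fold in red, higher in green and within 2-fold in grey, dashed lines at 2-fold and the middle of all genes from -0.72 to 0.55 shaded. Red points gather in the rows for acylation to triglyceride, the malate-aspartate shuttle and the PPAR regulators, and Aqp7 stands apart from Aqp1 and the Gpd genes.

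Aqp4 is held at the muscle membrane through the dystrophin complex. In this list Dmd, the dystrophin gene, was higher, with 0.476 FPKM in control heart and 1.15 FPKM in csMed1-/- heart (log2 ratio 1.28). This call was lost with 1 FPKM added to both values (log2 ratio 0.54), and Dmd was not kept with 1 FPKM required in both libraries or with 10 FPKM required in either. Dag1, the dystroglycan gene, had 200.02 and 164.2 FPKM, and Dtna, the gene of α-dystrobrevin, had 27.98 and 19.2 FPKM. The low level of Aqp4 in csMed1-/- heart was thus not accompanied by a decrease past 2-fold of the Dmd, Dag1 or Dtna transcript.

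PPAR receptors are known regulators of Aqp7 and of Gpd1 in fat and liver. Of the 6 regulators listed, all had log2 ratios below 0 and 3 were lower by more than 2-fold, Ppara (log2 ratio -2.90), Ppargc1a (-2.21) and Ppargc1b (-1.47). Among all genes, more had log2 ratios below 0 than above, and 18.0% were lower by more than 2-fold. Ppargc1b stood on 2 rows, which were summed, and its higher row alone gave -3.18, while Ppargc1a was not kept with 1 FPKM required in both libraries. Ppard had 32.7 and 27.0 FPKM, Pparg had 5.64 and 4.02 FPKM and Rxra had 36.4 and 24.0 FPKM.

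Several members are known from cell types other than the cardiomyocyte, and in whole heart RNA fewer cells of a type cannot be told apart from less RNA per cell. For Aqp1, the 11 endothelial markers summed to 817.4 FPKM in control heart and 824.6 FPKM in csMed1-/- heart. Of them, 3 were lower (Kdr, Tek and Emcn), 1 was higher (Vwf) and 7 lay within 2-fold. Over all genes, 18.0% were lower and 13.6% were higher. The level of Aqp1 was 6.17 times that of Pecam1 in control and 8.90 times in csMed1-/- heart. This rise depends on the marker. The ratios of Esam (1.48), Egfl7 (1.36) and Vwf (3.61) were above that of Aqp1 (1.21), and those of the other markers were below it. All 4 erythroid rows kept had log2 ratios above 0, and 2 were higher by more than 2-fold, against 13.6% of all genes. Alas2, the heme synthesis enzyme of red cell precursors, rose from 35.8 to 82.1 FPKM. Their summed level was 15942 FPKM in control heart and 24888 FPKM in csMed1-/- heart, and its part in the level of Aqp1 was not tested.

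For Aqp7 and Gpd1, which are abundant in fat cells, 6 of the 7 adipocyte markers (Adipoq, Plin1, Cidec, Retn, Lep and Cfd) were listed at 0 in control, and the highest of these 6 in csMed1-/- heart was Adipoq at 0.0101 FPKM. The exception, Cidea, had 37.6 and 81.4 FPKM. Of the 5 cardiomyocyte markers kept, 3 were lower, against 18.0% of all genes. These were Tnni3, Myl2 and Tnnt2, with log2 ratios from -2.74 to -1.03. Myl3, another ventricular myosin light chain, had 17340 and 10278 FPKM (-0.75) and Actn2, the gene of sarcomeric α-actinin, had 1286 and 1892 FPKM (0.56), both within 2-fold, and the call of Tnnt2 was lost when ratios were centred on their median (-0.96). All 8 markers summed to 51655 FPKM in control heart and 32272 FPKM in csMed1-/- heart. The 3 rows listed at 0 in control (Actc1, Mb and Myh6 with Myh7) entered only the csMed1-/- sum, with 9189, 1040 and 647 FPKM. The 2 sums are therefore not like for like, and the 5 markers kept fell by more in sum. The part of a lower cardiomyocyte share in the decrease of Aqp7 was not tested. The fibroblast, mural and macrophage lists had medians of -0.02, -0.11 and 0.28. Fibroblast markers summed to 266.7 FPKM in control heart and 631.7 FPKM in csMed1-/- heart, mostly through Col1a1, mural markers to 660.4 and 464.2 FPKM, and macrophage markers to 130.7 and 163.4 FPKM.

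**Figure D4:**
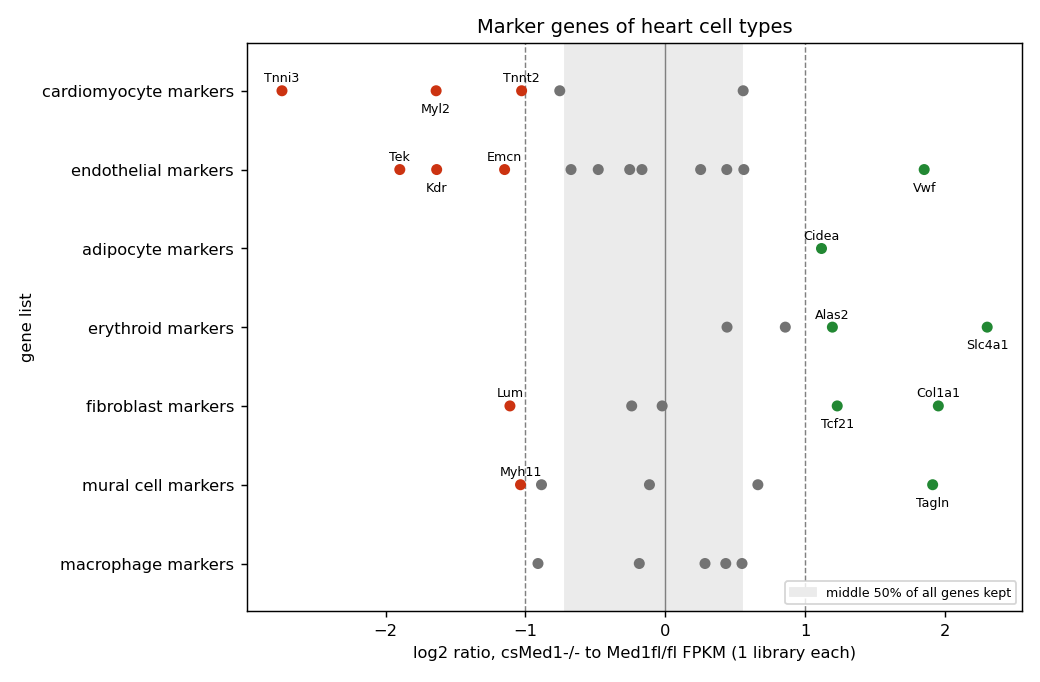
Log2 ratio of csMed1-/- to Med1fl/fl FPKM (horizontal axis, 1 library each) for the marker genes kept of each cell type (vertical axis), coloured red when lower and green when higher by more than 2-fold and grey within 2-fold, with dashed lines at 2-fold and the middle of all genes shaded. Endothelial markers spread from Tek at -1.90 to Vwf at 1.85, and the erythroid points all lie above 0.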

How the data were processed

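Directional single-end libraries were made from polyadenylated heart RNA. The authors aligned them to mm10 (the assembly GRCm38) with TopHat 2.0.8b and computed the deposited FPKM of known genes with Cufflinks and Cuffdiff 2.1.1, and the submitters' processing notes also name STAR 2.4.0h without a role. The library scaling is not given in the sources used here. Each file holds 23424 rows, and rows sharing a symbol were summed. The FPKM summed to 780366 in control and 716365 in csMed1-/- heart. Read counts were not used here, so the depth and precision of single values are unknown. Plain ratios of csMed1-/- to Med1fl/fl FPKM were computed with Python 3.11.15, numpy 2.4.6 and pandas 2.3.3 for genes with values above 0 in each library that reached 1 FPKM in either of them, and the computation was tested on simulated data. No value was added before the ratio. A gene joined with others on 1 row was taken from that row. Alternatives were added values, filters, scalings, a 4-fold threshold and the highest row of a symbol. Named genes were all members, Med1, the genes of the lists, and the 2 nearest in ratio to each member past 2-fold. Some listed genes are not reported singly here. Marker genes named singly and the motifs were chosen after values were seen. The members and lists were chosen with earlier results of these data known. Positions and transcript lengths came from GENCODE M21, joined by symbol, and figures were drawn with matplotlib 3.10.9.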

Additional observations from a re-analysis of the deposited data

How the results depend on the processing

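The directions of Aqp1, Aqp7, Gpd1, Gpd1l and Gpd2 were the same under every alternative that gave a value. The log2 ratio of Aqp7 ran from -2.80 to -2.54, that of Aqp1 from 0.26 to 0.40, that of Gpd1 from 0.29 to 0.43, that of Gpd1l from -0.31 to -0.18 and that of Gpd2 from -1.0004 to -0.55. Scaling to the same FPKM sum moved the median of all genes by 0.12 on the log2 scale. The number of lower members was 1 of 5 kept. It became 3 of 7 with no filter, which let in Aqp4 and Aqp8, where 20.0% of all genes were lower. It became 2 (Aqp7 and Gpd2) with both libraries scaled to the same FPKM sum without the 100 highest genes. With that scaling, 1916 of 10489 genes were lower. The median of the aquaporin members, -1.25 over Aqp1 and Aqp7, became -2.03 with no filter. The 2 higher pathway genes, Lpin3 and Dmd, became 1 (Lpin3) with 1 FPKM added and with 1 FPKM required in both libraries. They became 0 with 10 FPKM required or at 4-fold. With ratios centred on their median there were 3, Pgs1 being added. With both libraries scaled to the same FPKM sum there were 4, Pgs1 and Dak being added. Of all 10489 genes, 1423 were higher as reported, 1081 with 1 FPKM added and 453 at 4-fold. With centred ratios 1569 were higher, and with the same FPKM sum 1677. With 1 FPKM required in both libraries 1037 of 9160 were higher, and with 10 FPKM required 821 of 5426. The 12 lower pathway genes of 43 kept became 7 at 4-fold, where 5.14% of all genes were lower. With 0.1 FPKM added and no filter, chosen after seeing the data, the log2 ratio of Aqp4 was -2.49 and that of Aqp8 -0.78. The depth behind each value is unknown here. No paired analysis was possible because each genotype had 1 library.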
